A study of Mus musculus with 8 samples.

Results

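Isolated peaks are regions of open chromatin that stand alone on the chromosome. They were chosen from the peak table as peaks on chromosomes 1 to 19, narrower than 1500 bp, with no other peak starting within 100 kb of their own start. The rule uses position and width only, and 1111 of the 134473 peaks met it, which is 0.826% of the table. They were set against the 125684 other peaks of the same chromosomes and the same width limit, here called other peaks.

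The samples were MPP2 cells, multipotent blood progenitors, taken from C57BL/6 mouse bone marrow at an age of 8 to 12 weeks. Every library came from 500 cells in the gate LSKFlt3-CD150+CD48+, positive for Gata1, a transcription factor of red cells and megakaryocytes. Of the 2 groups, 1 was also positive for Vwf, the gene of von Willebrand factor (Vwf+Gata1+), and the other was negative for it (Vwf-Gata1+), with 4 libraries each. Chromatin was profiled by ATAC-seq, in which a transposase cuts and tags accessible DNA, following the Omni-ATAC procedure. Separate animals are not stated for the libraries of a group. The p-values therefore measure only how far these libraries spread, which may be technical. Peaks were not matched to genes, so the sorted cell type was not checked here against the accessibility of its marker genes.

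Accessible sites in mammalian genomes are mostly promoters, enhancers and sites bound by the insulator protein CTCF. Enhancers of genes that define a cell type often lie in groups, and gene-rich chromosomes carry many open sites. Long stretches with few genes hold few open sites, and those that do occur there can be distal enhancers, insulator sites, promoters of lone genes or short calls near the limit of detection. Which of these kinds each isolated peak belongs to was not analysed here. Positions are given on the mm9 build as the table lists them.

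Isolated peaks were weak and narrow. Total counts in peaks ran from 4628997 to 7753538 per library, and the median isolated peak had between 5 and 9 counts in a library, against 12 to 21 for the median other peak. Signal was taken as CPM, the count scaled to library size with TMM factors. The mean CPM over the 8 libraries had a median of 1.18 over isolated peaks, with quartiles of 0.895 and 1.90, and of 2.69 over other peaks, with quartiles of 1.34 and 6.45. In every library the median isolated peak was lower than the median other peak, by 1.86-fold to 2.63-fold. Both medians are whole counts within a library, so these folds move in coarse steps. The log2 ratio was -1.16 ± 0.16 (SD, n = 8 libraries), and a 2-sided exact sign-flip permutation test over libraries gave p = 0.00781, the smallest that 8 libraries allow. All libraries were counted over the same peaks, so this p shows only that the libraries agree on these 2 lists. Per kb of peak width the gap was smaller, with a log2 ratio of -0.72.

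The median isolated peak was 290 bp wide, with quartiles of 232 and 375 bp, and the median other peak was 384 bp wide, with quartiles of 272 and 634 bp. Of isolated peaks 32.9% were narrower than 250 bp, compared with 18.4% of other peaks. Only 34 isolated peaks, 3.06%, were wider than 1000 bp, compared with 8.93% of other peaks. Widths belong to 1 peak set shared by all libraries, so this difference has no replicate error and no test. Width and signal went together in both sets. Spearman's rho across peaks was 0.731 for isolated and 0.827 for other peaks, where all peaks share the same 8 libraries and a wide peak collects more counts.

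**Figure D1:**
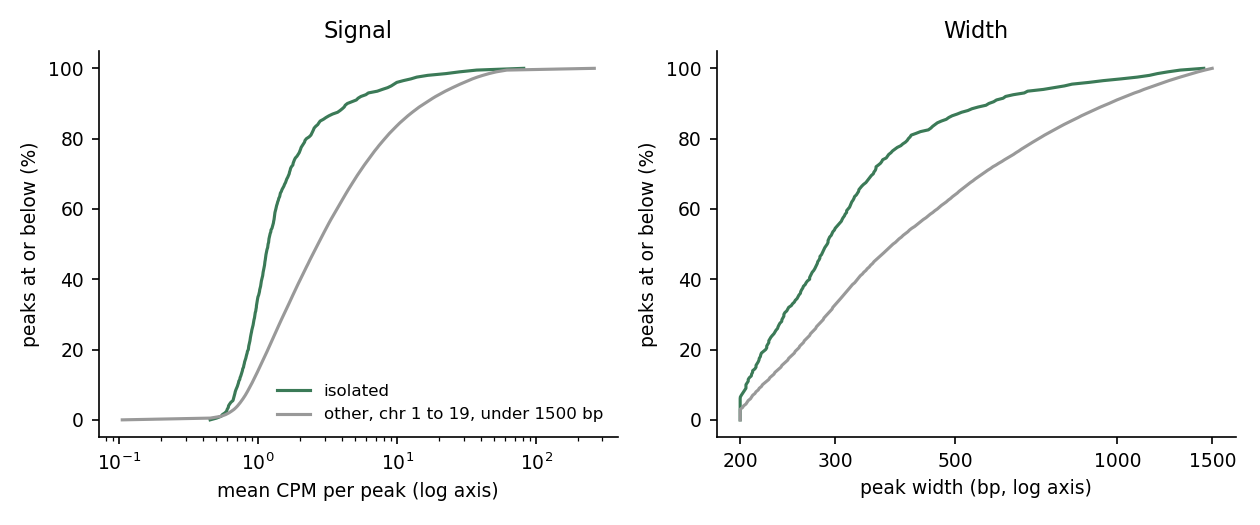
Share of peaks (%) at or below a given mean CPM over 8 libraries (left) and a given width in bp (right), both on log axes, for 1111 isolated peaks (green) and 125684 other peaks of chromosomes 1 to 19 narrower than 1500 bp (grey). The green curves lie to the left over most of their range, with medians of 1.18 against 2.69 CPM and 290 against 384 bp.

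When all peaks of chromosomes 1 to 19 narrower than 1500 bp were divided into 3 equal classes by mean CPM, 775 isolated peaks (69.8%) were in the lowest class, which reached up to 1.66 CPM. The middle class held 227 (20.4%), and the highest, above 4.601 CPM, held 109 (9.81%). Within a class the widths of isolated and other peaks lay closer together. Their medians were 264 and 256 bp in the lowest class, 407 and 389 bp in the middle class and 670 and 752 bp in the highest. Isolated peaks were thus narrower in the highest class and slightly wider in the 2 classes below it.

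Signal fell with distance from other peaks, and the limit of 100 kb marked no step. Peaks whose nearest other start was under 5 kb away had a median of 2.92 CPM. The median was 2.41 CPM at 5 to 20 kb, 1.67 CPM at 20 to 50 kb and 1.36 CPM at 50 to 100 kb. For isolated peaks it was 1.23 CPM at 100 to 200 kb (692 peaks) and 1.11 CPM beyond 200 kb (419 peaks). Width did not follow the same order, with the widest median, 428 bp, at 5 to 20 kb and 377 bp under 5 kb. Beyond that it was 334 bp, 299 bp, 296 bp and 280 bp. Among isolated peaks themselves, distance and signal were only weakly related (Spearman's rho of -0.098 across 1111 peaks).

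**Figure D2:**
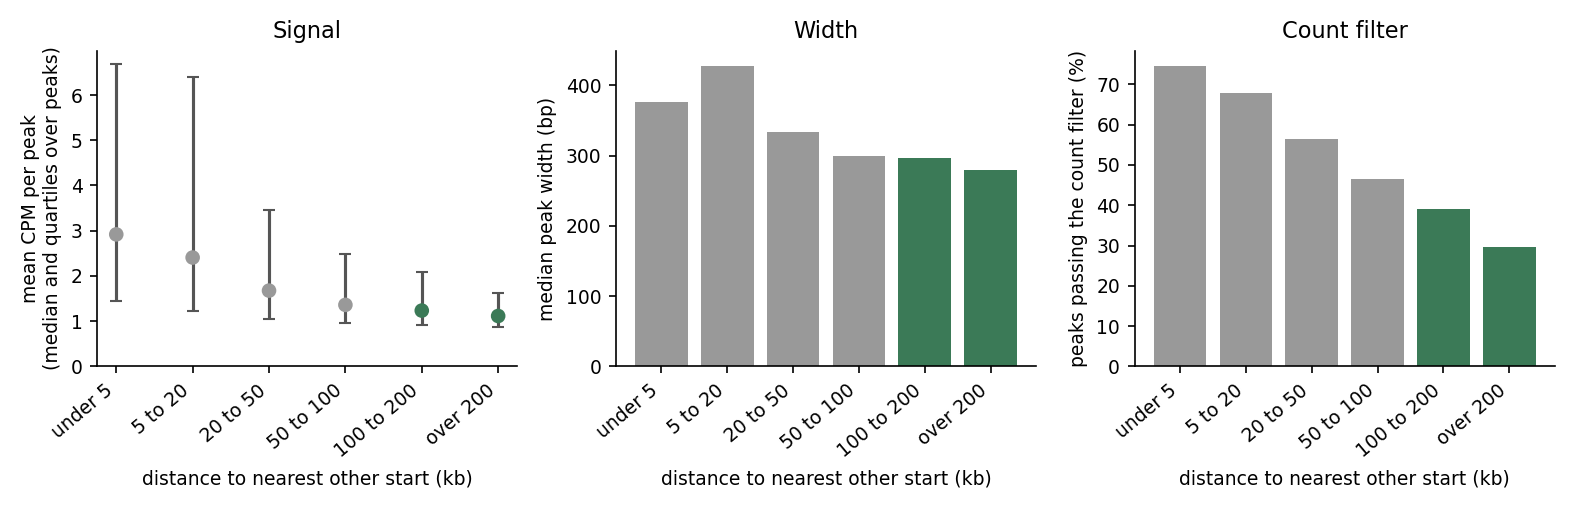
Peaks of chromosomes 1 to 19 narrower than 1500 bp by distance in kb to the nearest other peak start, with the mean CPM per peak (left, median as a point and quartiles as bars), the median width in bp (middle) and the percentage passing the count filter of the test (right). The 2 green classes are the isolated peaks, and their medians of 1.23 and 1.11 CPM continue a decline that starts at 2.92 CPM.

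Isolated peaks occurred on each of the 19 chromosomes. Chromosome 1 had the most, 107, and chromosome 3 the highest share, 1.32% of its peaks under 1500 bp. Chromosome 1 ranked next in share (1.23%), ahead of chromosome 14 with 64 peaks (1.22%). The lowest shares were 0.319% on chromosome 11, with 29 isolated peaks, and 0.357% on chromosome 19, with 14. Chromosomes 11 and 19 were also the most densely covered, with 79.3 and 70.2 peaks per Mb, and chromosome 3 was the least, with 43.5. Across the 19 chromosomes the rank correlation of peak density with the isolated share was -0.937, given as a description since a higher density leaves less room for gaps of 100 kb.

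The distance from an isolated peak to its nearest neighbour had a median of 170 kb, and 41 peaks were more than 500 kb away. On both sides of the peak at 125753918 to 125754117 on chromosome 1 the nearest start was more than 1 Mb away, at 1500 and 1384 kb, the farthest of all members. That peak was also among the weakest and the narrowest. It was 200 bp wide and had 6, 1, 2 and 3 counts in replicates 1 to 4 of Vwf+Gata1+ cells and 8, 8, 2 and 3 in Vwf-Gata1+ cells. On chromosome 11 the peak at 47590840 to 47591044, 205 bp wide, ranked next with 974.5 kb. It had 8, 1, 9 and 9 counts in Vwf+Gata1+ cells and 4, 4, 1 and 5 in Vwf-Gata1+ cells. The groups overlapped at both peaks, and neither had enough counts to be tested.

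The next 3 in order of distance were also weak, though stronger than these. They lay on chromosome 14 at 93247049 to 93247272 (884 kb) and 95551302 to 95551564 (826 kb) and on chromosome 3 at 23075035 to 23075356 (856 kb). Their mean signal was 0.970, 0.928 and 0.969 CPM. The chromosome 3 peak had 0 counts in replicate 3 and 14 in replicate 4 of Vwf+Gata1+ cells, which shows how far single libraries differ at this depth. Beside a total of 4628997 counts, 0 counts allow a share of up to 6.48e-05%, a limit for counting error only.

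Isolated peaks were often neighbours of each other. Of the 1111, 624 (56.2%) lay in a run of at least 2 isolated peaks with no other peak between them, and 487 stood between peaks that were not isolated or at the end of a chromosome. There were 16 runs of 5 or more, with 90 peaks in all. The longest had 8 peaks over 3995 kb of chromosome 15 (14454745 to 18449831). Next came a run of 7 over 1381 kb of chromosome 17 (38677171 to 40058233) and one of 6 over 3473 kb of chromosome 1 (26530291 to 30003741). Isolated peaks therefore marked sparse regions of up to several Mb as well as single sites.

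At the limit of the rule, the member nearest to it was a 367 bp peak of chromosome 1 (11219446 to 11219812) with 2.46 CPM, whose neighbour started 100.014 kb away. The closest left out were a pair of peaks of chromosome 10 whose starts lay 99.95 kb apart, of which the one at 124143813 to 124144051 had 239 bp and 0.788 CPM. The width limit removed 12 peaks that met the distance rule. The narrowest of those was 1562 bp wide with 5.47 CPM (chromosome 10, 70061119 to 70062680). Just under it, the widest members had 1446 bp and 13.7 CPM on chromosome 8 (30049021 to 30050466), 1430 bp and 28.9 CPM on chromosome 3 (159157852 to 159159281) and 1419 bp and 27.1 CPM on chromosome 15 (32850069 to 32851487). At the other end were peaks of 200 bp, the lowest width in the table, such as those of chromosome 1 at 23068896, 42257521 and 83443262, with 0.718, 0.785 and 0.560 CPM.

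A small part of the isolated peaks was strong. Over 10 CPM lay 44 (3.96%), against 16.3% of other peaks, and over 20 CPM lay 19 (1.71%), against 7.48%. The strongest was a peak of only 356 bp on chromosome 1 (104524641 to 104524996), 263 kb from the next start. It had 78.1, 91.0, 93.3 and 107 CPM in replicates 1 to 4 of Vwf+Gata1+ cells and 46.9, 68.6, 89.5 and 76.6 CPM in Vwf-Gata1+ cells. Replicate 1 was the lowest library of both groups there, and the groups overlapped. The mean of 81.4 CPM was higher than at 99.9% of other peaks.

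The next 4 strongest outside chromosome 18 were of different shapes. Peaks of 1183 bp on chromosome 14 (25598274 to 25599456), 1288 bp on chromosome 1 (113760588 to 113761875) and 1178 bp on chromosome 4 (70952181 to 70953358) had 55.3, 43.0 and 39.7 CPM. On chromosome 3 a peak of 580 bp (61962887 to 61963466) had 45.4 CPM. The peak of chromosome 4 had the smallest difference of these 5 between groups, with 36.1 to 45.6 CPM in Vwf+Gata1+ cells and 35.3 to 40.8 CPM in Vwf-Gata1+ cells.

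Signal per kb singled out a set of narrow, strong members, a measure chosen after the data were seen. Only 13 isolated peaks exceeded 47.9 CPM per kb, the 99th percentile of other peaks, which is 1.17% of isolated peaks against 1% by definition. These 13 had a median width of 244 bp, from 223 to 580 bp, whereas the 1257 other peaks above that mark had a median of 994 bp. Their mean signal ran from 11.1 to 81.4 CPM. Isolated peaks were thus weaker at the median and yet as often among the densest signals, and these dense members were short.

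The comparison of Vwf+Gata1+ with Vwf-Gata1+ cells asks whether isolated sites open or close with Vwf. It was tested with edgeR's quasi-likelihood test on the whole table, after a filter on low counts that 97040 peaks passed. Of the 1111 isolated peaks, 395 (35.6%) passed this filter, against 71.8% of other peaks, and the 716 that did not have no test. No isolated peak had an adjusted p under 0.05 (Benjamini-Hochberg over all tested peaks), and the lowest was 0.132. The count was 0 higher and 0 lower. Over all tested peaks 0.0144% were called, 0.0134% higher and 0.00103% lower, so a count of 0 among 395 lies near the background. DESeq2 and limma-voom with quality weights also called 0 isolated peaks. At an unadjusted p under 0.05 DESeq2 had 48 of 1111 (4.32%, against 3.04% of all peaks) and limma-voom 51 of 395 (12.9%, against 7.49%).

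At an unadjusted p under 0.05 in edgeR there were 43 isolated peaks, 10.9% of those tested, 19 higher and 24 lower in Vwf+Gata1+ cells. Over all tested peaks the share was 6.72%, with 3.52% higher and 3.2% lower. Isolated peaks beyond 200 kb had a share of 16.1% (20 of 124) and those at 100 to 200 kb 8.49% (23 of 271), while peaks at 50 to 100 kb, which are not isolated, had 10.1% (66 of 651). The split by direction changed with single libraries. Without replicate 4 of Vwf+Gata1+ cells, 12 of 435 were higher and 31 lower (either direction together 9.89%, against 5.90% of all peaks). Without replicate 1 of Vwf+Gata1+ cells, 34 of 460 were higher and 23 lower (either direction together 12.4%, against 7.95%). Without replicate 3 of Vwf-Gata1+ cells, 43 of 479 were higher and 24 lower (either direction together 14.0%, against 7.22%). Without replicate 3 of Vwf+Gata1+ cells, 19 of 520 were higher and 40 lower (either direction together 11.3%, against 6.08%). The split by direction over all peaks is not given here for these fits. The groups did not overlap at 13 isolated peaks (3.29%), 5 higher and 8 lower, near the 3.88% of all tested peaks (1.81% higher and 2.07% lower). The median log2 fold change of the 395 was -0.00, with quartiles of -0.24 and 0.21, and 196 (49.6%) were above 0. The same values over other tested peaks were 0.00, with quartiles of -0.16 and 0.15, and 50.1% above 0. Isolated peaks spread more widely around the same centre, beside a larger median standard error, 0.31 against 0.24. A change of more than 2-fold was fitted at 5 isolated peaks (1.27%), against 0.407% of other tested peaks.

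**Figure D3:**
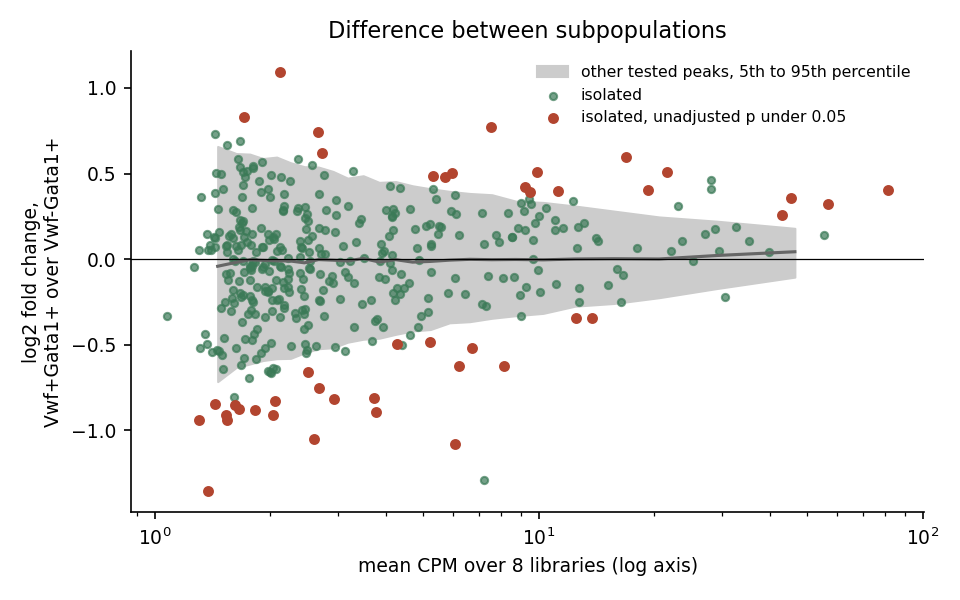
Log2 fold change of Vwf+Gata1+ over Vwf-Gata1+ cells against mean CPM (log axis) for the 395 tested isolated peaks, with the 43 at an unadjusted p under 0.05 in red. The grey band is the 5th to 95th percentile of other tested peaks and the line their median, and isolated peaks scatter on both sides of 0, beyond the band at both ends.

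By class of signal, low p-values were most frequent among the strongest isolated peaks. Tested peaks were divided into 3 equal classes by mean CPM, the lowest up to 2.87 and the highest from 6.74. In the highest class, 15 of 75 isolated peaks (20%) had an unadjusted p under 0.05, 12 higher and 3 lower, compared with 7.70% of other peaks in that class. The share was 12.2% against 7.05% in the middle class, with 3 higher and 8 lower, and 7.39% against 5.81% in the lowest, with 4 higher and 13 lower. Among other peaks the numbers higher and lower were 1305 and 1013 of 30119 in the highest class. They were 1074 and 1047 of 30104 in the middle class and 839 and 901 of 29964 in the lowest. In the highest class 52 of 75 isolated peaks (69.3%) had a log2 fold change above 0, compared with 53.0% of other peaks. In the lowest class 44.3% were above 0, against 48.4%. Peaks are not replicates, and these shares are descriptions of the 8 libraries with no test.

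Libraries of one group also differed more at isolated peaks. In the highest class the variance of CPM between libraries of a group was 2.49 times what counting alone gives (median over isolated peaks), compared with 1.59 times at other peaks. The ratios were 1.65 and 1.30 in the middle class and 1.30 and 1.21 in the lowest. In the highest class the median coefficient of variation was 14.1% in Vwf+Gata1+ and 20.1% in Vwf-Gata1+ cells at isolated peaks, against 12.5% and 12.2% at other peaks. Without the replicate 1 libraries of both groups, 19 of 75 isolated peaks of the highest class (25.3%) had an unadjusted p under 0.05, against 7.77% of other peaks. The middle class had 11 of 90 (12.2% against 7.03%), and the lowest 11 of 193 (5.70% against 5.84%), so the lowest class then showed no larger share than other peaks. With all libraries the lowest class had 230 tested isolated peaks, so its shares in the 2 fits come from different sets of peaks. With all libraries, groups did not overlap at 5.33% of isolated against 4.14% of other peaks in the highest class, 1.11% against 4.05% in the middle and 3.48% against 3.65% in the lowest.

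The 13 dense and narrow members all had a higher fitted signal in Vwf+Gata1+ cells, with log2 fold changes from 0.06 to 0.46 and a median of 0.32, and none passed the adjusted threshold (lowest adjusted p in edgeR 0.356). Among the other peaks above the same density 75.2% were also higher, with a median of 0.06. The mean over the 13 peaks was 25.1, 30.9, 31.6 and 32.8 CPM in replicates 1 to 4 of Vwf+Gata1+ cells and 17.0, 23.0, 30.4 and 26.5 CPM in Vwf-Gata1+ cells. Replicate 1 was lowest in both groups, and the groups overlapped. These 2 libraries were also lowest in the part of all counts that fell in the strongest 1% of peaks, at 10.8% and 10.2% against 11.1% to 12.0% in the other 6. Without both replicate 1 libraries all 13 stayed above 0, with a median of 0.23. Of the other peaks above the same density 70.6% were then above 0, with a median of 0.05. The part of library quality in the lean of the 13 was not tested.

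The lowest p among isolated peaks belonged to a 914 bp peak of chromosome 1 (128214216 to 128215129), 110 kb from the next start. In CPM it reached 8.56, 10.7, 10.1 and 8.77 in replicates 1 to 4 of Vwf+Gata1+ cells and 6.53, 5.54, 4.68 and 5.11 CPM in Vwf-Gata1+ cells. All 4 libraries of the first group lay above all 4 of the second. The log2 fold change was 0.77 ± 0.18 (SE; edgeR adjusted p = 0.132).

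On chromosome 3 a peak of 894 bp (117571393 to 117572286), 360 kb from the next start, also separated the groups. It had 23.0, 24.0, 30.0 and 24.4 CPM in Vwf+Gata1+ cells and 15.2, 15.99, 22.4 and 17.95 CPM in Vwf-Gata1+ cells. The log2 fold change was 0.51 ± 0.12 (SE; edgeR adjusted p = 0.164). Replicate 3 was the highest library of both groups at this peak. Without replicate 3 of Vwf-Gata1+ cells it was the only isolated peak called, at 0.62 on the log2 scale (edgeR adjusted p = 0.0462).

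The third in this order, 494 bp on chromosome 19 (51216865 to 51217358), had 16.1, 23.8, 18.8 and 22.0 CPM against 7.97, 14.6, 16.4 and 15.03 CPM (log2 fold change 0.60 ± 0.17; edgeR adjusted p = 0.310). Here the groups overlapped, and replicate 1 was the lowest in both. The same held for the strong 580 bp peak of chromosome 3 described above, with 43.5 to 55.8 CPM against 29.9 to 43.7 CPM (log2 fold change 0.36 ± 0.11; edgeR adjusted p = 0.356). On chromosome 1 the 213 bp peak at 124090343 to 124090555 had the highest fold of the members leaning to Vwf+Gata1+ cells, 2.14. Its counts were 21, 13, 10 and 27 against 6, 6, 10 and 13. These counts overlapped between the groups, and only after scaling for depth were the groups apart. The lowest Vwf+Gata1+ library then had 2.29 CPM and the highest Vwf-Gata1+ library 1.95 CPM (edgeR adjusted p = 0.389).

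Of the members lower in Vwf+Gata1+ cells, the lowest p was at a 596 bp peak of chromosome 15 (45957250 to 45957845), 318 kb from the next start. It had 1.71, 2.25, 2.06 and 0.863 CPM in Vwf+Gata1+ cells and 3.66, 2.61, 3.51 and 4.09 CPM in Vwf-Gata1+ cells. The groups did not overlap, and the log2 fold change was -1.05 ± 0.30 (SE; edgeR adjusted p = 0.323).

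On chromosome 2 a peak of 304 bp (7718057 to 7718360) showed the largest fitted fold of all tested isolated peaks, 2.56, on low counts. These were 7, 3, 2 and 7 in Vwf+Gata1+ cells and 13, 13, 9 and 18 in Vwf-Gata1+ cells (log2 fold change -1.36 ± 0.40; edgeR adjusted p = 0.336). Each library of the first group was below each of the second.

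Stronger signal with a smaller difference was seen on chromosome 4 at 28103899 to 28104290, a peak of 392 bp. It had 7.64, 8.07, 3.90 and 5.75 CPM against 11.2, 10.9, 9.17 and 8.46 CPM, with no overlap (log2 fold change -0.63 ± 0.19; edgeR adjusted p = 0.368). The 310 bp peak at 19795448 to 19795757 of chromosome 17 was alike in size of difference, with 4.82 ± 1.32 against 7.57 ± 1.11 CPM (SD, n = 4 each; log2 fold change -0.63 ± 0.20; edgeR adjusted p = 0.452). A peak of 674 bp on chromosome 7 (126585336 to 126586009) had overlapping groups, 1.71 to 4.58 against 3.79 to 7.38 CPM (log2 fold change -0.89 ± 0.29; edgeR adjusted p = 0.453).

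**Figure D4:**
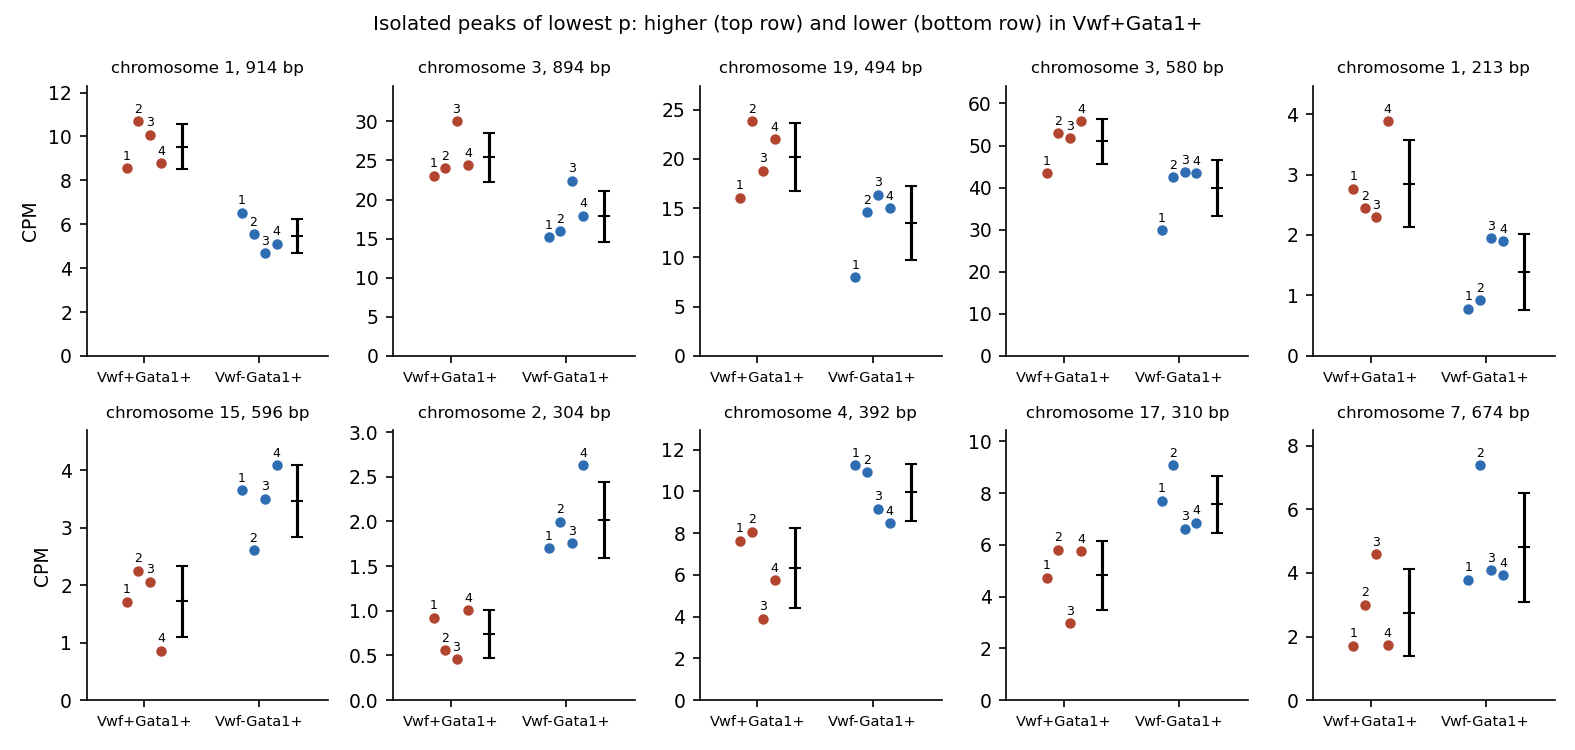
CPM in each library at the 5 isolated peaks of lowest p in each direction, numbered by replicate, with the mean and SD of 4 libraries beside them. The groups are apart at 7 of the 10 peaks and overlap at the 494 bp, 580 bp and 674 bp peaks, and no peak passed the adjusted threshold. These peaks were picked by p on the same libraries. Over the 395 tested isolated peaks the groups were apart at 3.29%, against 3.88% of all tested peaks.

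A pair of peaks on chromosome 8, chosen after their values were seen, showed how much libraries of one group can differ at an isolated site. At 56199018 to 56199589 (572 bp, 283 kb from the next start) Vwf+Gata1+ cells had 3.95, 4.50, 3.67 and 3.59 CPM. Vwf-Gata1+ cells had 11.9 and 12.1 CPM in replicates 1 and 2 but 4.88 and 3.79 CPM in replicates 3 and 4. Only replicates 1 and 2 of the second group were thus well above the first (log2 fold change -1.08 ± 0.33; edgeR adjusted p = 0.471). Without replicate 4 of Vwf-Gata1+ cells it was the only isolated peak called (log2 fold change -1.33; edgeR adjusted p = 0.0387).

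At 14306682 to 14307442 (761 bp) Vwf+Gata1+ cells had 4.35, 2.06, 8.25 and 2.30 CPM, and Vwf-Gata1+ cells had 9.67, 10.3, 18.1 and 2.63 CPM. Replicate 3 was the highest of both groups, and replicates 2 and 4 were low in Vwf+Gata1+ cells. Its variance was 18.2 times what counting alone gives, and the log2 fold change was -1.29 ± 0.67 (SE; edgeR adjusted p = 0.803).

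As a whole, isolated peaks took up similar parts of both groups' counts. The share of a library's counts in isolated peaks was 0.245%, 0.273%, 0.281% and 0.287% in replicates 1 to 4 of Vwf+Gata1+ cells and 0.242%, 0.278%, 0.293% and 0.276% in Vwf-Gata1+ cells. Replicate 1 was the lowest in both groups. Exact binomial 95% intervals were narrow, for instance 0.241% to 0.248% for the first of these, and cover counting error only. The means were 0.272% ± 0.019 and 0.272% ± 0.022 (SD, n = 4 each). A 2-sided exact permutation test gave p = 0.971 (0.971 adjusted over the family of 7). With 4 libraries against 4 no p can fall below 0.0286.

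Weak and strong isolated peaks leaned to opposite sides, within the spread of libraries. Isolated peaks of the lowest of the 3 classes of all peaks held 0.0721% ± 0.0056 of counts in Vwf+Gata1+ and 0.0804% ± 0.0062 in Vwf-Gata1+ cells (exact permutation p = 0.143, 0.533 after adjustment). Those of the highest class held 0.146% ± 0.010 and 0.136% ± 0.015 (exact permutation p = 0.286, 0.533 after adjustment). Other peaks of the lowest class held 4.24% ± 0.18 and 4.41% ± 0.36, and the strongest 1% of all peaks held 11.5% ± 0.52 and 11.1% ± 0.72 (exact permutation p = 0.429 and 0.457, both 0.533 after adjustment). The log2 ratio of median signal, isolated to other peaks, was -1.24 ± 0.13 in Vwf+Gata1+ and -1.07 ± 0.15 in Vwf-Gata1+ cells (exact permutation p = 0.171, 0.533 after adjustment). The median isolated peak had only 5 to 9 counts in a library, so this ratio moves in coarse steps of whole counts.

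The number of isolated peaks without a count was 3, 13, 24 and 6 in replicates 1 to 4 of Vwf+Gata1+ cells and 3, 2, 3 and 3 in Vwf-Gata1+ cells. The 2 highest numbers belonged to replicates 2 and 3 of Vwf+Gata1+ cells, with 5632393 and 4628997 counts in all. Replicate 3 of Vwf-Gata1+ cells had a total between these, 5447813, and lacked counts at only 3. Among other peaks 0.503% and 1.01% were without a count in the first 2 libraries and 0.602% in the last, so there it ranked by depth. Over all 8 libraries 52 isolated peaks (4.68%) lacked a count in at least 1, against 2.42% of other peaks, and none in more than 2.

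**Figure D5:**
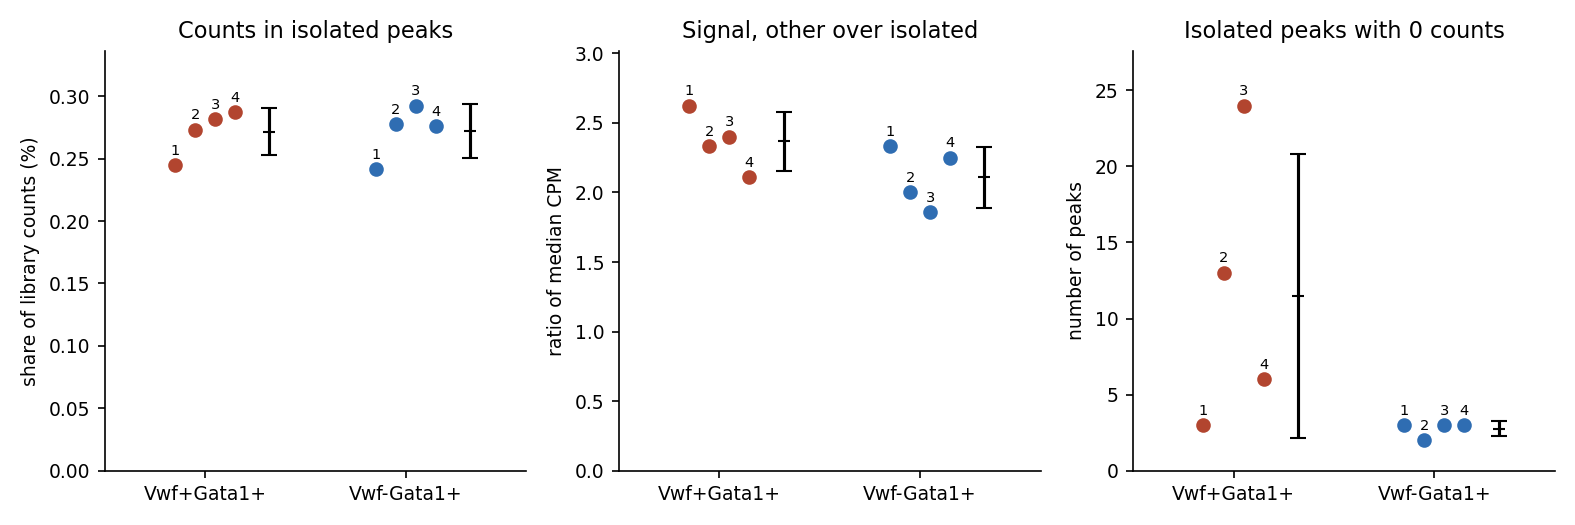
Each library as a point numbered by replicate, with the mean and SD of 4 beside it, for the share of counts in isolated peaks (%), the ratio of median CPM of other over isolated peaks, and the number of isolated peaks with 0 counts. The groups overlap in all 3 panels, with means of 0.272% in both groups on the left.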

How the data were processed

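The authors deposited raw counts per peak for 8 ATAC-seq libraries in 1 table. The submitters' processing notes name mm9 as build and Bowtie2, MACS2, Picard, SAMtools, FastQC and Trim Galore as tools. Their roles, versions, read shift, duplicate handling and peak merging are not given in the sources used here. Coordinates were read as 1-based. No genome or annotation of mm9 was used, so genes, sequences and motifs were not analysed here. Every sample column was used.

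Low counts were filtered with edgeR's filterByExpr (minimum count 10, total 15) on the whole table, libraries were scaled by TMM, and groups were tested with robust quasi-likelihood fits. Log2 fold changes are Vwf+Gata1+ over Vwf-Gata1+, with SE as their size over the square root of F. The code was tested on simulated data. Single library values were compared with 2-sided exact permutation tests. Total counts per library, 4628997 to 7753538, limit precision at weak peaks most. Tests used edgeR 4.0.16, DESeq2 1.42.0 and limma 3.58.1 in R 4.3.3, and scipy 1.17.1 in Python 3.11.15. Figures used matplotlib 3.10.9.

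Members, classes and the rule for named peaks were chosen with earlier results of these data known. Named were the 5 peaks of lowest p per direction, the 5 strongest, the 5 farthest, the 3 widest, the 3 narrowest and those at the limits of the rule. Peaks of chromosome 18 (43 members) were counted and not named. Alternatives were other scalings, filters, tools, distances and widths, a replicate block, and each library left out.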

Additional observations from a re-analysis of the deposited data

Results flagged for a closer look

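In groups of 4 libraries, a value was looked at again where the gap of the highest or lowest library to its neighbour exceeded 0.83 of the group's range. Of 74 groups of values examined this way, 4 were picked out, and chance alone picks about 1 in 20. At the 580 bp peak of chromosome 3 (61962887 to 61963466), replicate 1 of Vwf-Gata1+ cells had 29.9 CPM, and the other 3 had 42.4 to 43.7 CPM. Replicate 2 of Vwf-Gata1+ cells had 7.38 CPM at the 674 bp peak of chromosome 7 (126585336 to 126586009), and the other 3 had 3.79 to 4.10 CPM. At the untested 200 bp peak of chromosome 1 (23068896 to 23069095), replicate 1 of Vwf+Gata1+ cells had 1.98 CPM from 15 counts, and the other 3 had 0.431 to 0.563 CPM from 2 to 3 counts. The share of isolated peaks without a count was 0.180% in replicate 2 of Vwf-Gata1+ cells, or 2 peaks, and 0.270%, or 3 peaks, in each of the other 3, a gap of 1 peak.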

How the results depend on the processing

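No isolated peak was called with DESeq2, limma-voom, RLE scaling, scaling to the total, dispersions without down-weighting, loess offsets, a CPM minimum, no filter or both replicate 1 libraries left out (chosen after seeing the data), and leaving out 1 library gave 0 to 1 higher and 0 to 1 lower. With the replicate number as a block 7 were called higher and 3 lower (32 and 38 at an unadjusted p under 0.05, or 17.7% against 10.3% of all peaks). The share of all peaks called at the adjusted threshold under the block is not given here, so these calls have no background beside them. The labels do not explain the numbers, and deviations of same-numbered libraries correlated at 0.301, 0.163, 0.074 and 0.010. When each library was compared with the 4 libraries of the other group only, 5 of 8 were closest to their own number. At an unadjusted p under 0.05, no filter gave 35 higher and 74 lower of 1111 (9.81% against 6.38% of all peaks), and the CPM minimum gave 27 higher and 44 lower of 704 (10.1% against 6.49%). Leaving out 1 library gave 12 to 43 higher and 23 to 40 lower of 435 to 520. In either direction together this was 8.50% to 14.0%, against 5.82% to 7.95% of all peaks. In all 18 other fits the median log2 fold change lay between -0.067 and 0.044. These were the values without replicate 4 and without replicate 1 of Vwf+Gata1+ cells.

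The rule gave 2514 peaks at 50 kb and 419 at 200 kb, where the median width was 280 bp. The log2 ratio of signal kept its sign and its call throughout, from -1.33 with means to -0.72 per kb of width. The difference in share of counts, -0.00038 percentage points, changed sign at 200 kb (0.00169), edge to edge (0.000124), with chromosome X (0.000919), as a share of autosomal peaks under 1500 bp (0.000752) and in the highest signal class (0.0106), and lay between -0.0105 and 0.00856 without 1 library. It passed its test in none of these (exact permutation p = 0.875 with the replicate block). Of 359 values for 20 named peaks in other fits, 10 gained a call, 8 of them under the block (the 572 bp and 761 bp peaks of chromosome 8, the 914 bp and 356 bp peaks of chromosome 1, the 894 bp and 580 bp peaks of chromosome 3, the 494 bp peak of chromosome 19 and the 392 bp peak of chromosome 4, with adjusted p from 6.69e-05 to 0.0458 in edgeR), and 2 changed sign, both at the 1178 bp peak of chromosome 4, which ranged from -0.0127 (replicate 3 of Vwf+Gata1+ cells left out) to 0.0983 and reached -0.00334 when replicate 1 of Vwf-Gata1+ cells was omitted. The filter on low counts left 716 isolated peaks untested.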
